A study of Mus musculus with 12 samples.

Results

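The CLK and SRPK kinases are 7 genes, Clk1 to Clk4 and Srpk1 to Srpk3, taken by symbol from a table of 23163 gene symbols. They were followed across 12 RNA sequencing libraries of brown fat (brown adipose tissue, BAT) and of the white fat under the skin (subcutaneous, sWAT) from male C57Bl/6 mice aged 8 to 12 weeks. The groups were BAT of mice kept at 4 °C for 72 hours (BAT cold), BAT of mice kept at 30 °C for the same time (BAT thermoneutral), and sWAT at each temperature (sWAT cold and sWAT thermoneutral), with 3 libraries each. All animals were of the same strain and sex, and at 30 °C, thermoneutrality, mice hold their body temperature without making additional heat. The labels give 20 mice, 10 per temperature, but do not say whether the 3 libraries of a group are separate animals or pools. The p-values below therefore measure the spread between these libraries, which may be technical in part.

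Both families add phosphate to the serines of arginine-serine repeats, the low-complexity tails of the SR proteins that help to define exons. The SRPKs act largely in the cytoplasm, where their phosphorylation lets the importer transportin-SR carry SR proteins into the nucleus. The CLKs act in the nucleus, where further phosphorylation releases SR proteins from storage speckles to nascent transcripts. Transcripts of Clk1 and Clk4 are known in mouse cells for introns that are kept in the nucleus and spliced out on demand, and the activity of these enzymes is known to vary within the range of body temperature. The table counts whole genes, so neither retained introns nor kinase activity is measured here.

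All 7 genes were found in the table and all passed the filter on low counts in each comparison. Positions are from the mm10 build (GENCODE M21 annotation). Clk1 (ENSMUSG00000026034.17) lies at chr1:58410189-58424066 on the minus strand, Clk2 (ENSMUSG00000068917.12) at chr3:89164795-89176921 on the plus strand, and Clk3 (ENSMUSG00000032316.8) at chr9:57750624-57765860 on the minus strand. Clk4 (ENSMUSG00000020385.16) lies at chr11:51261730-51281766 on the plus strand. Among the SRPKs, Srpk1 (ENSMUSG00000004865.16) lies at chr17:28587648-28622709 and Srpk2 (ENSMUSG00000062604.11) at chr5:23503264-23684617, both on the minus strand. Srpk3 (ENSMUSG00000002007.5) lies at chrX:73774405-73778925 on the plus strand. The annotation lists 13 transcripts of Clk1, of which 1 is coding and 7 are of the retained-intron class. It lists 14 of Clk4, of which 4 are coding and 7 are of the retained-intron class. The class is not particular to these genes. It holds 4 of 11 transcripts of Clk2, 4 of 9 of Clk3, 6 of 13 of Srpk1, 3 of 10 of Srpk2 and 3 of 4 of Srpk3.

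The CLKs are also called LAMMER kinases after a stretch of the catalytic domain that marks the family. The coding bases of that stretch are shown because they tell the 4 CLK transcripts apart from each other and from the SRPKs. Each line is exonic coding sequence of the longest protein-coding transcript, written 5′ to 3′ in 36 bases, with the 18 bases of the motif in capitals. The stretches lie at chr1:58412979-58413014 (minus strand) for Clk1, chr3:89175404-89175439 (plus strand) for Clk2, chr9:57752147-57752182 (minus strand) for Clk3 and chr11:51280370-51280405 (plus strand) for Clk4, all in mm10.
Clk1: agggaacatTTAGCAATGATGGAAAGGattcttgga
Clk2: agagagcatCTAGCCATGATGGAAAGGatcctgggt
Clk3: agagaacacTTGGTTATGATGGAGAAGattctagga
Clk4: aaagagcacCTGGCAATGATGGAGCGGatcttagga
Clk1, Clk2 and Clk4 encode the motif in its canonical form and Clk3 encodes a variant of it. The same search found no such stretch in the coding sequence of Srpk1, Srpk2 or Srpk3. Clk1 and Clk2 shared 29 of the 36 bases, Clk1 and Clk3 shared 28, and Clk1 and Clk4 shared 25. No run of 100 bases, the length of a read, was shared between any pair of the 7 genes in their annotated transcripts, so whole reads of one member do not match another.

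Some members overlap genes on the opposite strand, and the sources used here do not say whether counting used strand. Of the 100-base runs in Clk3 transcripts, 1109 of 8833 also lie in Edc3, and 873 of 14129 in Srpk2 transcripts also lie in Kmt2e. Edc3 had 6.44 to 8.41 CPM (counts scaled to library size) in BAT cold libraries, 8.55 to 14.1 in BAT thermoneutral, 9.77 to 12.3 in sWAT cold and 14.0 to 21.4 in sWAT thermoneutral libraries. Kmt2e had 65.2 to 147 CPM in BAT cold, 75.3 to 287 in BAT thermoneutral, 53.4 to 128 in sWAT cold and 45.3 to 51.4 in sWAT thermoneutral libraries. How far reads of these neighbours entered the counts of Clk3 and Srpk2 was not tested.

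The libraries held 27117934 to 56243016 counts. The lowest member count was 42, for Srpk3 in a BAT cold library, and the lowest for Clk1 was 119, in a sWAT thermoneutral library. The temperature labels were checked on Ucp1, the uncoupling protein of brown fat. It had 20100 to 23100 CPM in BAT cold libraries, against 1420 to 2550 CPM in BAT thermoneutral ones. In sWAT it had 3210 to 13200 CPM in cold libraries, against 41.2 to 377 CPM in thermoneutral ones. Summed over 7 adipocyte markers, levels were 11500 to 17700 CPM in BAT cold, 11900 to 13000 CPM in BAT thermoneutral, 12600 to 19400 CPM in sWAT cold and 5050 to 7830 CPM in sWAT thermoneutral libraries, and no marker of the adipocyte or brown adipocyte list was at 0 throughout a group. The sWAT thermoneutral libraries stood apart from the other 9. The 13 mitochondrially encoded genes took 0.181% to 0.307% of their counts, against 17.6% to 53.8% elsewhere. The slope of log2 CPM on the GC content of transcripts was 0.93 to 1.53 per 10 percentage points in them, against −0.65 to 0.33 elsewhere. For members called with these libraries, values are therefore also given with a GC correction, which removes each library's own trend of log2 CPM on GC content.

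CPM values were scaled by library total and TMM factor and were not corrected for GC content. Between genes, levels are compared as CPM per kilobase of the longest coding transcript. On that scale the sum over the 4 CLK genes was above the sum over the 3 SRPK genes in every library. This did not hold gene by gene: in sWAT thermoneutral libraries Srpk1, at 10.6 to 12.6 CPM per kilobase, was above Clk1 (1.54 to 6.53) and Clk4 (6.07 to 8.29). The 4 CLK genes summed to 73.2, 84.3 and 107 CPM per kilobase in BAT cold libraries 1, 2 and 3, and to 156, 121 and 151 in BAT thermoneutral libraries. In sWAT they summed to 111, 79.3 and 81.9 CPM per kilobase in cold and to 54.7, 60.7 and 64.3 in thermoneutral libraries. The cold and thermoneutral groups did not overlap in either tissue, with the cold sums lower in BAT and higher in sWAT. The 3 SRPK genes summed to 10.4 to 14.9 CPM per kilobase in BAT cold, 11.5 to 20.3 in BAT thermoneutral, 13.9 to 23.8 in sWAT cold and 20.0 to 20.9 in sWAT thermoneutral libraries, with overlap in both tissues.

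**Figure D1:**
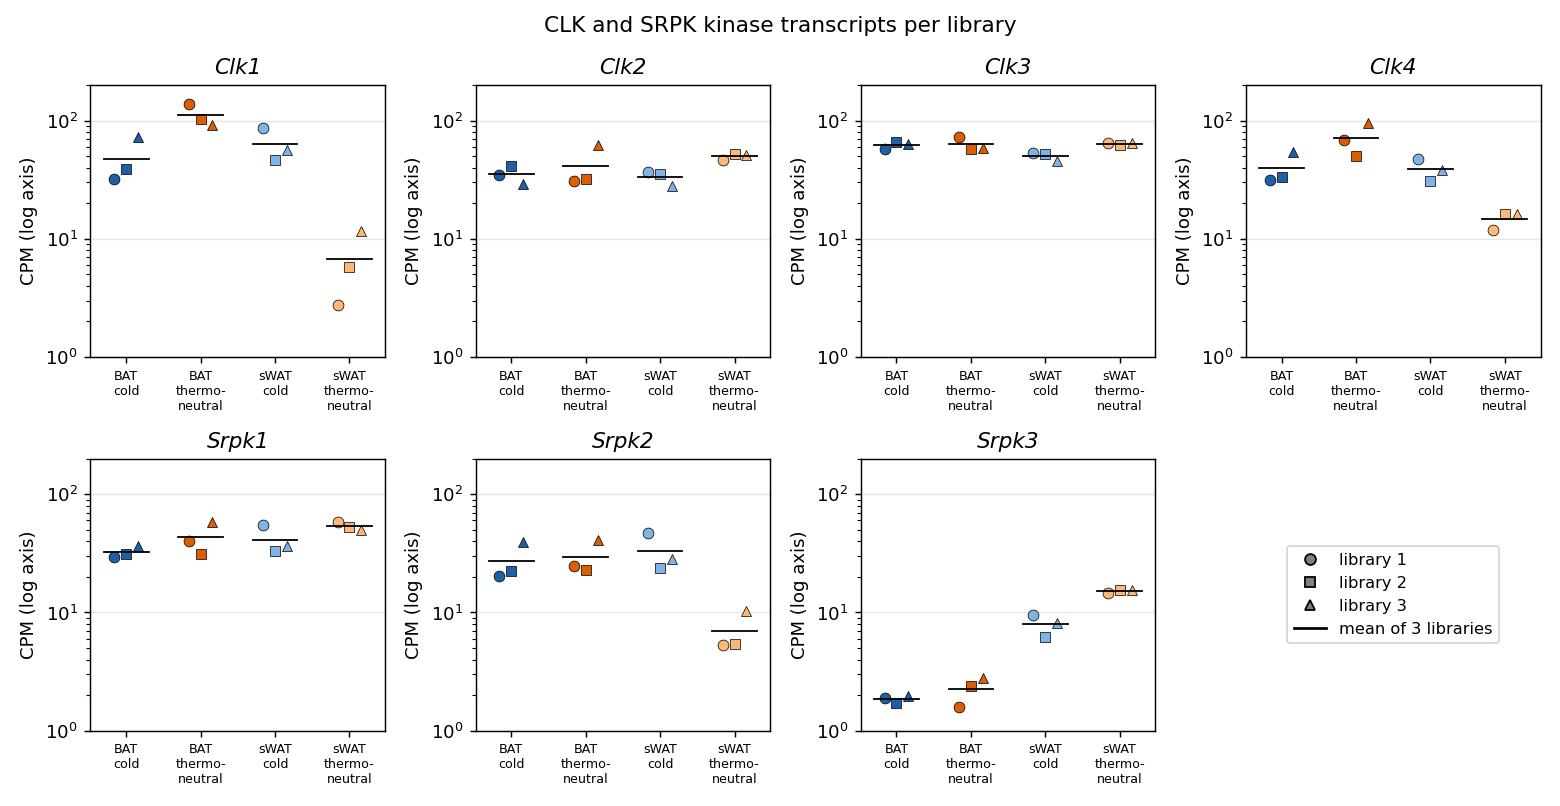
CPM of each kinase gene on a log axis in the 12 libraries, 3 per group. Points are libraries 1, 2 and 3 of a group, and bars are means. Clk1, Clk4 and Srpk2 were lowest in all 3 sWAT thermoneutral libraries, where Clk1 had 2.77 to 11.7 CPM, and Srpk3 was highest there at 14.7 to 15.4 CPM.

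Within the families the order of levels differed by group. In BAT cold libraries Clk1 (26.6 ± 12.0 CPM per kilobase, mean ± SD, n = 3), Clk3 (24.9 ± 1.57), Clk4 (20.3 ± 6.37) and Clk2 (16.2 ± 2.95) followed each other with neighbours that overlapped. Clk1 led this order through library 3, with 40.2 against 25.3 CPM per kilobase of Clk3. In libraries 1 and 2 Clk3 was above Clk1, with 23.1 against 17.9 and 26.2 against 21.6. In BAT thermoneutral libraries Clk1 was highest at 61.7 ± 13.5 CPM per kilobase, followed by Clk4 (36.4 ± 11.5), Clk3 (25.1 ± 3.60) and Clk2 (19.3 ± 8.31). Its lowest library, at 50.7, lay above the highest Clk4 library, at 48.4, and the lower 3 genes overlapped with their neighbours. In sWAT cold libraries Clk1 led at 35.0 ± 11.5 CPM per kilobase, with no overlap, ahead of Clk3 (20.2 ± 1.75), Clk4 (20.0 ± 4.27) and Clk2 (15.4 ± 2.17), each of which overlapped with its neighbour. In sWAT thermoneutral libraries the order was Clk3 (25.5 ± 0.423), Clk2 (23.2 ± 1.45), Clk4 (7.54 ± 1.27) and Clk1 (3.77 ± 2.54), with no overlap between any neighbours but the last pair.

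Among the SRPKs, Srpk1 was the most abundant per kilobase in all 4 groups, from 6.96 ± 0.764 in BAT cold to 11.6 ± 1.01 in sWAT thermoneutral libraries. Srpk2 averaged 4.21 ± 1.62 CPM per kilobase in BAT cold, 4.55 ± 1.53 in BAT thermoneutral, 5.09 ± 1.87 in sWAT cold and 1.08 ± 0.443 in sWAT thermoneutral libraries. Srpk3 averaged 0.933 ± 0.0606, 1.14 ± 0.307, 4.02 ± 0.809 and 7.67 ± 0.207 CPM per kilobase in the same groups, each from 3 libraries. Within a library, Srpk2 was above Srpk3 in every BAT and every sWAT cold library, and Srpk3 was above Srpk2 in every sWAT thermoneutral library. In sWAT cold the gap was small in 2 of the 3 libraries, with 3.69 against 3.16 and 4.35 against 4.14 CPM per kilobase of Srpk2 and Srpk3.

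As shares, Clk1 made up 24.4%, 25.6% and 37.7% of the CLK sum in BAT cold libraries, against 49.4%, 47.7% and 33.5% in BAT thermoneutral libraries. The BAT groups overlapped through the libraries numbered 3. In sWAT, Clk1 made up 43.3%, 32.8% and 37.9% of the CLK sum in cold libraries, against 2.81%, 5.34% and 10.2% in thermoneutral libraries. There was no overlap in sWAT. The ratio of Clk1 to Clk3 counts, which needs no library scaling, was 0.555, 0.593 and 1.14 in BAT cold libraries, against 1.89, 1.82 and 1.57 in BAT thermoneutral ones. In sWAT cold libraries this ratio was 1.61, 0.895 and 1.23, against 0.0433, 0.0934 and 0.182 in sWAT thermoneutral ones, with no overlap in either tissue and with opposite directions in BAT and sWAT. The ratio is not free of a library's GC trend, since the Clk1 and Clk3 transcripts have GC contents of 40.9% and 58.8%. Neither the shares nor this ratio were corrected for GC content. Srpk2 made up 30.3%, 26.5% and 26.8% of the SRPK sum in sWAT cold libraries, against 3.90%, 4.18% and 7.95% in sWAT thermoneutral libraries. Its share was 30.1% to 40.9% in BAT cold and 28.5% to 31.1% in BAT thermoneutral libraries.

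**Figure D2:**
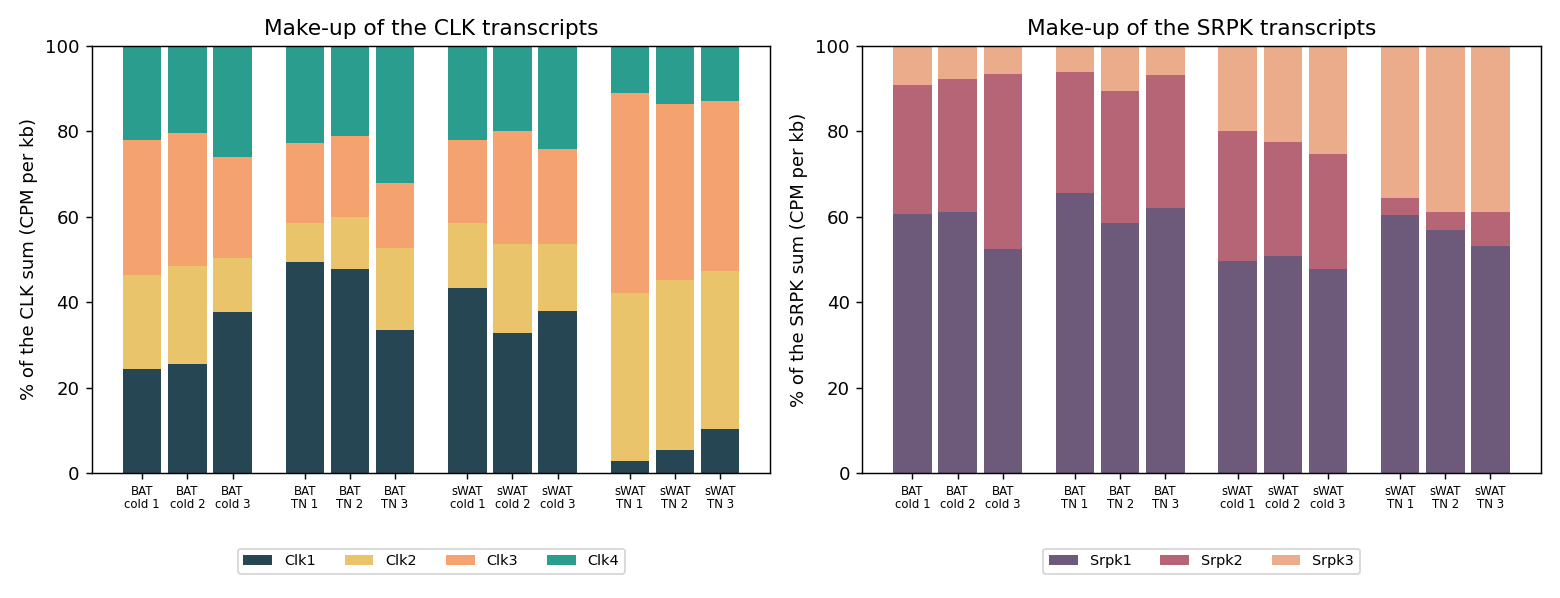
Share of each gene in the CLK sum (left) and the SRPK sum (right), in % of summed CPM per kilobase, in each of the 12 libraries (TN, thermoneutral). In the 3 sWAT TN libraries Clk1 fills 2.81% to 10.2% of the CLK bar and Srpk2 3.90% to 7.95% of the SRPK bar.

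In BAT, the comparison of cold with thermoneutral animals asks whether the kinase transcripts respond in the depot that already makes heat. By the quasi-likelihood test of edgeR, with p adjusted by Benjamini-Hochberg over all genes, 0 of the 7 members passed an adjusted p of 0.05, where 12.2% of the 14612 genes tested did, 6.82% higher and 5.34% lower in cold. At an unadjusted p under 0.05 there were 2, Clk1 and Clk4, and the share of all genes at that threshold is not given here. DESeq2, which called more genes over the whole table than edgeR did, called 1 member, and limma-voom called 0. The median log2 fold change of the members was −0.24, beside −0.04 over all genes tested. In bulk tissue, fewer cells of a type and less RNA per cell cannot be told apart.

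Clk1, the founding member of the CLK family, had 32.1, 38.8 and 72.2 CPM in BAT cold libraries 1, 2 and 3, against 138, 104 and 91.0 CPM in BAT thermoneutral libraries. All 3 cold libraries were below all 3 thermoneutral ones, and cold library 3 was nearest to them. The log2 fold change was −1.16 ± 0.36 (SE, n = 3 per group; edgeR adjusted p = 0.0695). With the GC correction it was −1.15 ± 0.25 (edgeR adjusted p = 0.0139), with DESeq2 −1.14 (adjusted p = 0.0214), and without cold library 3 it was −1.58 (edgeR adjusted p = 0.0137). Clk1 was not called with limma-voom, nor with the experiment number as a replicate block, nor in every fit without 1 library. BAT cold library 3 had the largest mitochondrial share of the 12 libraries, 53.8%, and the lowest GC slope, −0.65.

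Clk4, its close relative, had 31.4, 33.6 and 53.9 CPM in BAT cold libraries, against 68.6, 49.7 and 94.4 CPM in BAT thermoneutral libraries. The groups overlapped, since cold library 3 was above thermoneutral library 2, but each cold library was below the thermoneutral library of the same experiment number. The log2 fold change was −0.78 ± 0.33 (edgeR adjusted p = 0.161). With the experiment number as a replicate block it passed (−0.78 ± 0.21, edgeR adjusted p = 0.0476), and the labels do not say what the numbers mean. It was −0.73 ± 0.23 with the GC correction (edgeR adjusted p = 0.0520) and −0.80 without both libraries numbered 3 (edgeR adjusted p = 0.00582). Each of these alternative fits called more genes over the whole table than the main fit, most of all the one without the libraries numbered 3.

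The other members did not pass the test in BAT. Clk3 had 57.8, 65.4 and 63.1 CPM in BAT cold libraries, against 73.1, 57.1 and 58.1 CPM in BAT thermoneutral ones, a log2 fold change of 0.04 ± 0.24. Clk2 had 34.7, 41.5 and 28.8 CPM in BAT cold libraries, against 30.7, 31.9 and 62.3 CPM in BAT thermoneutral ones (−0.20 ± 0.34), with thermoneutral library 3 above all others. Each of these pairs of groups overlapped. Srpk1 had 29.4 to 36.3 CPM in BAT cold and 31.4 to 58.7 CPM in BAT thermoneutral libraries (−0.37 ± 0.29). Srpk2 had 20.3 to 39.4 and 23.1 to 41.0 CPM in the same groups (−0.06 ± 0.36). Srpk3, the least abundant member, had 1.72 to 1.95 CPM in BAT cold and 1.59 to 2.79 CPM in BAT thermoneutral libraries (−0.24 ± 0.34). All 3 SRPK genes overlapped between the groups.

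In sWAT, a depot in which cold brings out heat-producing adipocytes, 3 members were higher in cold and 1 was lower. Clk1, Clk4 and Srpk2 rose and Srpk3 fell, by the same test. The share called among all 15731 genes tested was 49.2%, with 25.1% higher and 24.1% lower. A count of 4 of 7 is therefore near that of genes at large. The median log2 fold change of the members was −0.34, beside 0.00 over all genes tested.

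Clk1 had 86.2, 46.7 and 55.8 CPM in sWAT cold libraries 1, 2 and 3, against 2.77, 5.82 and 11.7 CPM in sWAT thermoneutral libraries. Every cold library was above every thermoneutral one. The log2 fold change was 3.22 ± 0.52 (edgeR adjusted p = 0.00165). It was 3.88 without thermoneutral library 3, the highest of its group (edgeR adjusted p = 0.00168), and 1.99 ± 0.37 with the GC correction (edgeR adjusted p = 0.00430).

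Srpk2, the kinase that S6 kinase is known to switch on and that acts in the splicing of lipid synthesis transcripts, had 46.8, 24.0 and 28.2 CPM in sWAT cold libraries. It had 5.28, 5.43 and 10.3 CPM in sWAT thermoneutral libraries, all of them below the cold ones. The log2 fold change was 2.24 ± 0.39 (edgeR adjusted p = 0.00220), and 0.87 ± 0.26 with the GC correction (edgeR adjusted p = 0.0279).

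Clk4 had 47.6, 31.0 and 38.4 CPM in sWAT cold libraries, against 11.8, 16.2 and 16.1 CPM in sWAT thermoneutral libraries, without overlap. The log2 fold change was 1.41 ± 0.27 (edgeR adjusted p = 0.00304). With the GC correction it was 0.45 ± 0.18 and no longer passed (edgeR adjusted p = 0.0728).

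Srpk3, known as the kinase of skeletal muscle and heart, had 9.44, 6.26 and 8.21 CPM in sWAT cold libraries, against 14.7, 15.4 and 15.4 CPM in sWAT thermoneutral libraries. All cold libraries were below all thermoneutral ones, which lay close together. The log2 fold change was −0.93 ± 0.26 (edgeR adjusted p = 0.0176). The call was lost with the GC correction (−0.42 ± 0.26, edgeR adjusted p = 0.215), without cold library 2 (−0.76, edgeR adjusted p = 0.0730) and without cold library 3 (−0.93, edgeR adjusted p = 0.0657).

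Clk2, which in mouse liver acts on the coactivator PGC-1alpha, had 36.4, 35.5 and 27.9 CPM in sWAT cold libraries, against 46.3, 52.1 and 51.2 CPM in sWAT thermoneutral libraries. The groups did not overlap, and the log2 fold change was −0.59 ± 0.22 (edgeR adjusted p = 0.0527). It passed without cold library 1 (−0.67, edgeR adjusted p = 0.0265), and it was 0.06 ± 0.22 with the GC correction (edgeR adjusted p = 0.850). Clk3 had 53.5, 52.1 and 45.3 CPM in sWAT cold libraries, against 64.0, 62.3 and 64.3 CPM in sWAT thermoneutral ones, also without overlap. Its log2 fold change was −0.34 ± 0.21 (edgeR adjusted p = 0.209), and 0.59 ± 0.24 with the GC correction (edgeR adjusted p = 0.0785). Srpk1, which acts downstream of Akt in cultured cells, had 55.0, 33.0 and 36.2 CPM in sWAT cold libraries, against 58.8, 53.0 and 49.4 CPM in sWAT thermoneutral ones, with overlap through cold library 1. Its log2 fold change was −0.37 ± 0.27 (edgeR adjusted p = 0.273), −0.64 without that library (edgeR adjusted p = 0.0301) and −0.63 ± 0.24 with the GC correction (edgeR adjusted p = 0.0601).

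**Figure D3:**
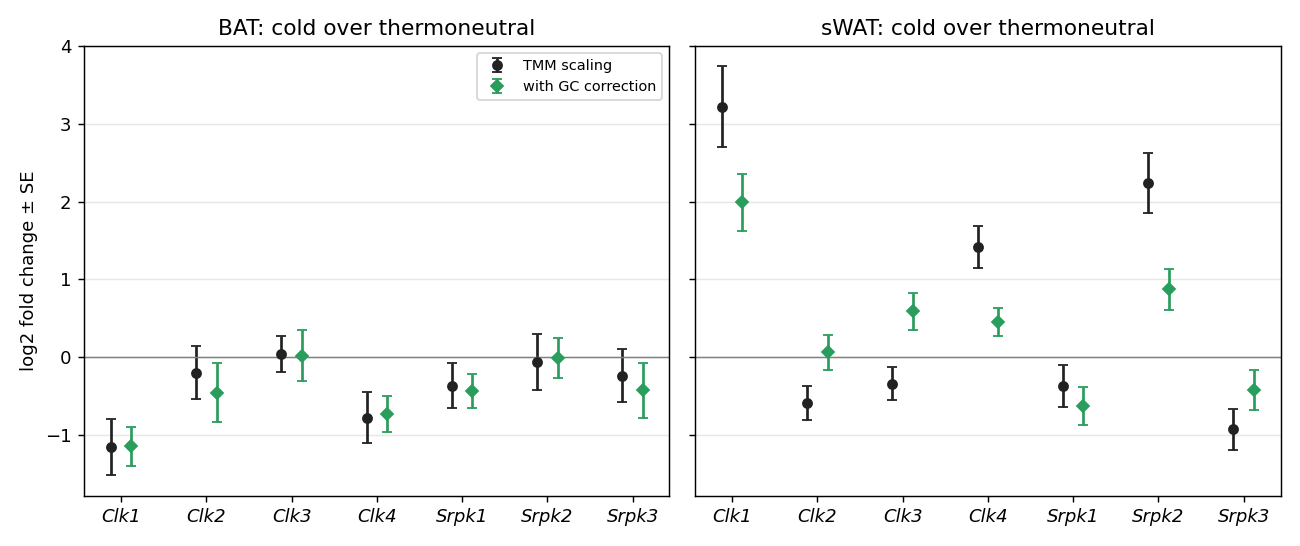
Log2 fold change (± SE, 3 libraries per group) of each kinase gene in cold over thermoneutral libraries, for BAT (left) and sWAT (right), with TMM scaling (black) and with a GC correction (green). In BAT Clk1 sits at −1.16 and −1.15, and in sWAT at 3.22 and 1.99.

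The members that rose in sWAT have the lowest GC content of the 7. The coding transcript of Srpk2 has a GC content of 40.5%, that of Clk1 40.9% and that of Clk4 43.3%. Srpk1 follows with 48.5%, Srpk3 with 54.6%, Clk2 with 55.9% and Clk3 with 58.8%, and these 4 had negative log2 fold changes. The sWAT thermoneutral libraries had the steepest GC slopes, so group and GC trend cannot be told apart for a single gene. Under the correction 2 of the 7 members were called, Clk1 and Srpk2, both higher in cold, where 43.5% of all genes were called, 22% higher and 21.5% lower. These are the members with the lowest GC content, and their corrected log2 fold changes were 1.99 and 0.87.

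**Figure D4:**
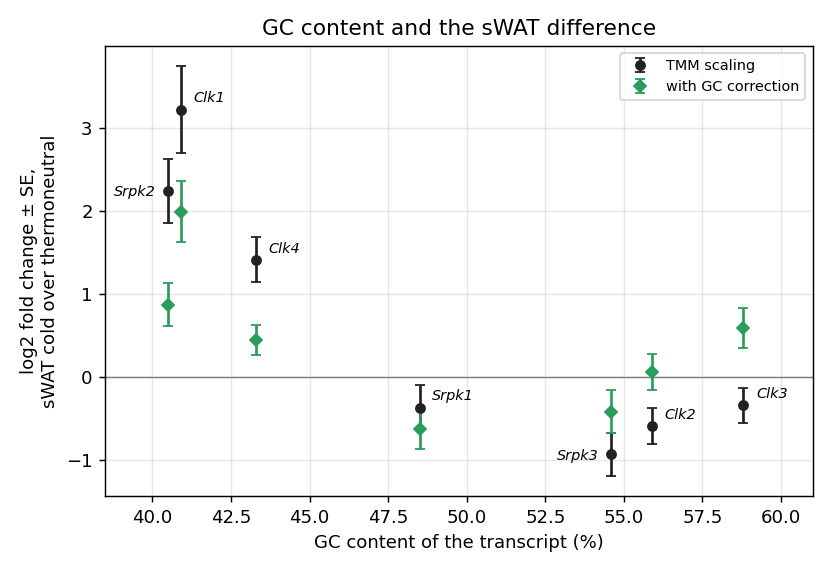
Log2 fold change (± SE, 3 libraries per group) of the 7 kinase genes in sWAT cold over sWAT thermoneutral libraries, against the GC content of the coding transcript in %. With TMM scaling (black) the 3 genes with the lowest GC content lie between 1.41 and 3.22 and the other 4 lie below 0, and with the GC correction (green) Clk1 at 1.99 is the highest.

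Markers of other cell types also moved in sWAT, where 25.1% of all genes were called higher and 24.1% lower. Of 18 skeletal muscle markers, 14 were higher in sWAT cold, with sums of 10500 to 27100 CPM, against 172 to 6270 CPM in sWAT thermoneutral libraries. Of 12 lymphocyte markers, 7 were lower, with sums of 182 to 530 CPM in cold and 760 to 1040 CPM at thermoneutrality. Of 9 macrophage markers 4 were lower and 1 higher (261 to 424 CPM in cold, 812 to 1370 CPM at thermoneutrality), and of 8 fibroblast markers 4 were lower (959 to 1540 CPM in cold, 3210 to 5610 CPM at thermoneutrality). Of 6 endothelial markers 4 were higher (407 to 516 CPM in cold, 169 to 288 CPM at thermoneutrality), and of 8 proliferation genes 5 were lower (23.7 to 52.3 CPM in cold, 39.6 to 71.1 CPM at thermoneutrality). Of 8 brown adipocyte markers 7 were higher (4680 to 17800 CPM in cold, 265 to 1190 CPM at thermoneutrality). The counts of macrophage and fibroblast markers called in either direction, 5 of 9 and 4 of 8, are near the 49.2% of all genes. The counts called lower, 4 of 9 and 4 of 8, are above the 24.1% of all genes. No marker of these lists was at 0 in every library of a group. The part of these cell types in the results for the kinase genes was not tested.

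Srpk3 and the muscle markers moved in opposite directions between the sWAT groups. Their libraries had the same order within BAT thermoneutral and the reverse order within BAT cold and within sWAT cold. In sWAT cold libraries 1, 2 and 3 the muscle sums were 10500, 27100 and 26800 CPM with 9.44, 6.26 and 8.21 CPM of Srpk3. In sWAT thermoneutral libraries they were 2490, 6270 and 172 CPM with 14.7, 15.4 and 15.4 CPM of Srpk3. In BAT cold libraries the muscle sums were 6590, 8370 and 5590 CPM with 1.88, 1.72 and 1.95 CPM of Srpk3, and in BAT thermoneutral libraries they were 4730, 14700 and 15200 CPM with 1.59, 2.40 and 2.79 CPM of Srpk3. Within BAT thermoneutral the library with the lowest muscle sum thus had the lowest Srpk3, and within BAT cold and sWAT cold it had the highest. Across the depots Srpk3 was higher in every sWAT library than in any BAT library. The lymphocyte, macrophage, fibroblast and proliferation sums all had their highest library, like Srpk3, in sWAT thermoneutral. The lymphocyte sum was 5.20, 3.40 and 5.35 CPM in BAT cold and 10.5, 7.26 and 9.81 CPM in BAT thermoneutral libraries. Its order was that of Srpk3 within BAT cold, and differed from that of Srpk3 within BAT thermoneutral and within sWAT cold. The part of any of these cell types in the Srpk3 level was not tested.

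**Figure D5:**
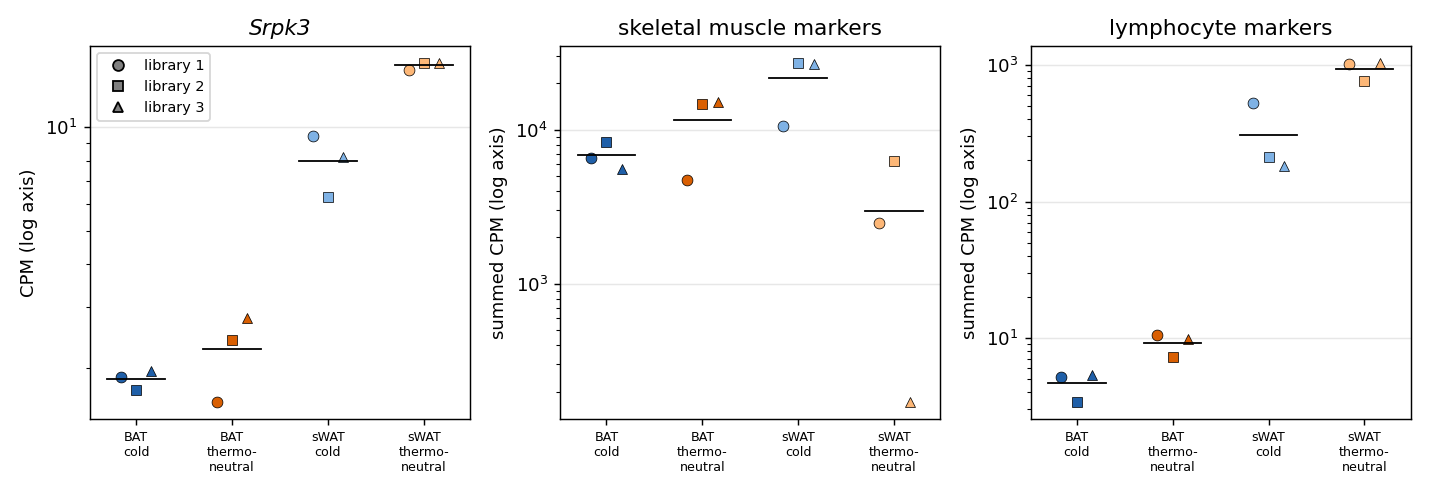
CPM of Srpk3 (left) and summed CPM of 18 skeletal muscle markers (middle) and 12 lymphocyte markers (right), on log axes, in the 12 libraries. Bars are means of 3 libraries. Srpk3 and the lymphocyte sum are highest in sWAT thermoneutral libraries, where the muscle sum of library 3 is 172 CPM. In BAT thermoneutral libraries Srpk3 and the muscle sum are both lowest in library 1, and in BAT cold and sWAT cold libraries their orders are reversed.

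The promoter of Srpk3 is shown because this gene was called between BAT and sWAT at both temperatures. In muscle it is known as a target of MEF2 factors. The window runs from 250 bases before to 50 bases after the RefSeq start (GRCm38.p6, chrX:73774155-73774454, plus strand), with a match to the MEF2 site in capitals.
Srpk3: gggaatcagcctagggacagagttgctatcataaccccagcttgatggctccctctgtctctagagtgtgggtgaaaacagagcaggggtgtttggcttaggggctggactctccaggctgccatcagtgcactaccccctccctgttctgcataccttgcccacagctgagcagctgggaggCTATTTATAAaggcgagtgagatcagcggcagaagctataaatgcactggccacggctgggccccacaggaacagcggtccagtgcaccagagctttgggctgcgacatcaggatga
The match lies 67 to 58 bases before the start and counts as a match on both strands. The motif was found in 1046 of 32817 promoter windows (3.19%), and in none of the other 7 windows of the members. A promoter window was found for 6 of the 7 members, 8 windows in all, and not for Clk1.

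The promoter of Clk4 is shown because, alone among the members' windows, it holds a full cyclic AMP response element. Cyclic AMP is the signal through which cold acts on adipocytes. Clk4 had a log2 fold change of 1.41 in sWAT, a call lost with the GC correction, and of −0.78 in BAT, which was not called. Its window (GRCm38.p6, chr11:51262864-51263163, plus strand) holds the full cyclic AMP response element, TGACGTCA, and a further copy of its first part, TGACG, both in capitals.
Clk4: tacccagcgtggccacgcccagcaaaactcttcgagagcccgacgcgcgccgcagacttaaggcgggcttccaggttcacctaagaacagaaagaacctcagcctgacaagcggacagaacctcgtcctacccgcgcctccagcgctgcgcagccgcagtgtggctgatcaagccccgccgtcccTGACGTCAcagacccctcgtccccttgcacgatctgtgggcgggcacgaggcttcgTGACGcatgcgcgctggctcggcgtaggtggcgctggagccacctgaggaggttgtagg
The full element lies 65 to 58 bases before the start. It was found on either strand in 588 of 32817 windows (1.79%), and in no other window of the members. The shorter TGACG, which the full element contains on both strands, was found in 6822 windows (20.8%), among them those of Clk2, Clk3 and Clk4. These matches describe the sequence, and the data hold no measurement of factor binding. Their part in the levels of these genes was not tested.

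The difference of the cold response between the depots was tested as an interaction over all 12 libraries, sWAT minus BAT. Of the 7 members, 3 were called by edgeR's quasi-likelihood test, all with a more positive response in sWAT, where 25.1% of the 16365 genes tested were called, 17.3% in that direction and 7.85% in the other. Clk1 had the largest difference, 4.43 ± 0.67 on the log2 scale (edgeR adjusted p = 0.00117), and it was 5.08 without sWAT thermoneutral library 3 and 3.06 with the GC correction (edgeR adjusted p = 0.00151). Clk4 differed by 2.25 ± 0.43 (edgeR adjusted p = 0.00349), and by 1.11 with the GC correction (edgeR adjusted p = 0.0188). Srpk2 differed by 2.34 ± 0.54 (edgeR adjusted p = 0.00859), and by 0.82 with the GC correction, which did not pass (edgeR adjusted p = 0.157). The differences of the other members were −0.33 ± 0.40 for Clk2, −0.32 ± 0.29 for Clk3, 0.05 ± 0.39 for Srpk1 and −0.63 ± 0.39 for Srpk3. The median difference was 0.05 over the members and 0.12 over all genes tested. Cell type markers moved in this comparison too. Of 18 skeletal muscle markers 12 had a more positive response in sWAT (list median 3.99), as did 3 of 8 brown adipocyte markers (2.39) and 3 of 7 adipocyte markers (1.13). A more negative response was called for 4 of 8 fibroblast, 3 of 9 macrophage and 2 of 8 proliferation markers. The part of these cell types in the differences of Clk1, Clk4 and Srpk2 was not tested.

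BAT and sWAT were also compared at each temperature. At thermoneutrality, where 58.7% of genes tested were called, 29.9% higher in BAT and 28.8% lower, 3 members were higher in BAT and 1 was lower. Clk1 had 138, 104 and 91.0 CPM in BAT thermoneutral libraries, against 2.77, 5.82 and 11.7 CPM in sWAT thermoneutral libraries (log2 fold change 4.03 ± 0.51, edgeR adjusted p = 3.25e-05), and the difference was 4.68 without sWAT library 3. Clk4 was higher by 2.27 ± 0.31 (edgeR adjusted p = 6.22e-05) and Srpk2 by 2.07 ± 0.39 (edgeR adjusted p = 6.34e-04). With the GC correction these log2 fold changes were 2.70 for Clk1, 1.14 for Clk4 and 0.61 for Srpk2, which no longer passed (edgeR adjusted p = 0.0744). Srpk3 was lower in BAT, with 1.59, 2.40 and 2.79 CPM in BAT thermoneutral libraries against 14.7, 15.4 and 15.4 CPM in sWAT thermoneutral libraries (−2.74 ± 0.29, edgeR adjusted p = 8.10e-06), and −2.22 with the GC correction. Clk2 (−0.26 ± 0.29), Clk3 (−0.02 ± 0.20) and Srpk1 (−0.30 ± 0.27) did not pass. Clk2 passed without BAT thermoneutral library 3 (−0.66, edgeR adjusted p = 0.0338), and with the GC correction Clk3 (0.88, edgeR adjusted p = 0.0295) and Srpk1 (−0.67, edgeR adjusted p = 0.0324) did.

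In the cold, where 12.3% of genes tested were called, 1.19% higher in BAT and 11.1% lower, Srpk3 was the single member called. It had 1.88, 1.72 and 1.95 CPM in BAT cold libraries, against 9.44, 6.26 and 8.21 CPM in sWAT cold libraries (−2.11 ± 0.29, edgeR adjusted p = 2.56e-04). There was no overlap, and the value was −2.13 with the GC correction. Clk1 had 32.1 to 72.2 CPM in BAT cold and 46.7 to 86.2 CPM in sWAT cold libraries, which overlapped (−0.40 ± 0.45, edgeR adjusted p = 0.641). Clk4 (0.02 ± 0.30), Srpk2 (−0.27 ± 0.38), Clk2 (0.07 ± 0.29), Clk3 (0.30 ± 0.20) and Srpk1 (−0.35 ± 0.27) were not called either. All 12 lymphocyte markers were lower in BAT at both temperatures. Of 9 macrophage markers 7 were lower at thermoneutrality and 5 in the cold, of 8 proliferation genes 7 and 3, and of 8 fibroblast markers 5 and 2, while 12 of 18 muscle markers were higher in BAT at thermoneutrality and none was called in the cold. The part of these cell types in the difference of Srpk3 was not tested.

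Other kinases that act on splicing or on the transcription machinery were counted from a list of 9. In BAT, where 12.2% of all genes were called, 0 of 8 tested passed by edgeR's quasi-likelihood test. At an unadjusted p under 0.05 there was 1, and the share of all genes at that threshold is not given here. DESeq2, which called more genes over the whole table than edgeR did, called 1 of the list. The nearest were Dyrk1b (1.24 ± 0.41, edgeR adjusted p = 0.0856, and 0.0121 without BAT cold library 3) and Cdk13 (0.39 ± 0.28), and the list median was 0.12. In sWAT 2 of 9 rose and 2 fell, near the 25.1% and 24.1% of all genes, with a list median of 0.51. The dual-specificity kinase Dyrk1a rose by 1.15 ± 0.26 (edgeR adjusted p = 0.00710), and Dyrk2 fell, with −1.51 ± 0.28 (edgeR adjusted p = 0.00303). Dyrk3, which dissolves nuclear speckles in dividing human cells, fell, with −2.41 ± 0.56 (edgeR adjusted p = 0.00789), at a mean log2 CPM of −1.26. Prpf4b, a kinase of the spliceosome, rose by 1.19 ± 0.28 (edgeR adjusted p = 0.00871), but its value was −0.13 with the GC correction.

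Among the SR and SR-like proteins, the substrates of both families, no gene was called higher in either depot. In BAT 2 of 12 fell, where 5.34% of all genes did, namely Tra2a (−1.61 ± 0.35, edgeR adjusted p = 0.0226) and Srsf3 (−1.14 ± 0.29, edgeR adjusted p = 0.0379), and the list median was −0.47. Neither was called when cold library 1 or 2 or thermoneutral library 1 or 2 was left out, with edgeR adjusted p from 0.0528 to 0.103 for Tra2a and from 0.0820 to 0.158 for Srsf3. In sWAT 4 of 13 fell, where 24.1% of all genes did, with a list median of −0.46. They were Srsf2 (−2.45 ± 0.38, edgeR adjusted p = 0.00141), Srsf9 (−1.72 ± 0.30, edgeR adjusted p = 0.00233), Srsf4 (−1.0 ± 0.26, edgeR adjusted p = 0.0119) and Srsf7 (−0.57 ± 0.21, edgeR adjusted p = 0.0458). With the GC correction 10 of the 13 fell, where 21.5% of all genes did. Srsf4 was then at −0.25 (edgeR adjusted p = 0.317), and it was not called without sWAT cold library 3 either (edgeR adjusted p = 0.0539). Srsf7 was not called when any library of sWAT but cold library 1 was left out, with edgeR adjusted p from 0.0755 to 0.162, nor with RLE scaling, no filter or all 12 libraries in the fit (edgeR adjusted p 0.0513, 0.0749 and 0.0862).

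The importer of phosphorylated SR proteins, Tnpo3, was at 0.63 ± 0.24 in BAT (edgeR adjusted p = 0.117) and 0.50 ± 0.23 in sWAT (edgeR adjusted p = 0.106). With the phosphatases that remove the phosphates it forms a list of 9. In BAT, where 6.82% of all genes rose and 5.34% fell, 1 of the 9 rose, the splicing phosphatase Ppm1g (1.00 ± 0.26, edgeR adjusted p = 0.0375), and 1 fell, the PP1 regulator Ppp1r10 (−1.69 ± 0.27, edgeR adjusted p = 0.00778). Ppm1g was not called without cold library 1 or 2 or thermoneutral library 1 or 2 (edgeR adjusted p 0.116 to 0.174) or with upper quartile scaling (edgeR adjusted p = 0.0572), and Ppp1r10 not without cold library 1 (edgeR adjusted p = 0.0519). The list median was 0.11 in BAT and 0.09 in sWAT. In sWAT 2 of 9 rose and 1 fell, fewer in all than the 49.2% of all genes called. The PP1 catalytic subunit Ppp1cb rose by 1.95 ± 0.32 (edgeR adjusted p = 0.00181; 0.65 and edgeR adjusted p = 0.109 with the GC correction). Ppp2cb, a catalytic subunit of PP2A, rose by 0.94 ± 0.32 (edgeR adjusted p = 0.0382), and the PP1 subunit Ppp1cc fell, with −0.79 ± 0.22 (edgeR adjusted p = 0.0152). Ppp1cc was not called without sWAT cold library 3 or thermoneutral library 2 (edgeR adjusted p 0.0588 and 0.0580). Ppp2cb was not called without cold libraries 2 or 3 or thermoneutral libraries 1 or 2 (edgeR adjusted p 0.0787 to 0.109) or with upper quartile scaling (edgeR adjusted p = 0.0575).

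Of 8 genes for kinases and adaptors upstream of the SRPKs, 2 rose in BAT, where 6.82% of all genes did, and none fell, with a list median of 0.21. Mtor, the growth kinase above S6 kinase, rose by 2.54 ± 0.27 in BAT (edgeR adjusted p = 0.00175) and by 2.18 ± 0.40 in sWAT (edgeR adjusted p = 0.00268). Its partner Rptor rose by 1.5 ± 0.32 in BAT (edgeR adjusted p = 0.0201), a call lost without cold library 1 or 2 or thermoneutral library 1 (edgeR adjusted p 0.0751 to 0.0894). In sWAT 3 of 8 rose and 1 fell, with a list median of 0.42. The share called in either direction is near the 49.2% of all genes, of which 25.1% were higher and 24.1% lower. The S6 kinase gene Rps6kb1 rose by 1.37 ± 0.33 (edgeR adjusted p = 0.00844), with −0.14 after the GC correction. Rps6kb2 fell, with −0.74 ± 0.23 (edgeR adjusted p = 0.0263), and −0.11 after the correction. Rps6kb2 was not called without cold libraries 2 or 3 or thermoneutral libraries 1 or 2 (edgeR adjusted p 0.0628 to 0.123).

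Lipid synthesis genes form a list of 13 with the splicing factor Snrnp70. SRPK2 is known to help splice some transcripts of lipid synthesis in growing cells, and whether it does so for each gene listed was not tested. In BAT 6 rose and none fell, where 6.82% of all genes rose, and the list median was 1.35. In sWAT 6 rose and 1 fell, and the list median was 1.08. The share called in either direction is near the 49.2% of all genes, of which 25.1% were higher and 24.1% lower. Sqle, which makes squalene epoxide on the way to cholesterol, rose by 2.49 ± 0.28 in BAT (edgeR adjusted p = 0.00236) and 1.47 ± 0.26 in sWAT (edgeR adjusted p = 0.00234). Hmgcs1, an early enzyme of that pathway, rose by 2.90 ± 0.29 in sWAT (edgeR adjusted p = 3.08e-04) and by 1.52 ± 0.30 in BAT (edgeR adjusted p = 0.0162). The BAT call of Hmgcs1 was lost without cold library 1 or thermoneutral library 1 or 2 (edgeR adjusted p 0.0534 to 0.0705), and 3 of the 13 genes were then called in place of 6. The desaturase gene Scd2 rose by 2.17 ± 0.27 in BAT (edgeR adjusted p = 0.00316) and 1.79 ± 0.35 in sWAT (edgeR adjusted p = 0.00362), and the citrate lyase gene Acly rose by 2.71 ± 0.32 in BAT (edgeR adjusted p = 0.00301). Snrnp70 was the gene that fell in sWAT, with −1.85 ± 0.36 (edgeR adjusted p = 0.00366).

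A last list of 7 holds PGC-1alpha, on which CLK2 acts in mouse liver, its relative Ppargc1b, the heat production genes Ucp1 and Dio2, the gluconeogenesis gene Pck1 and the PP2A regulatory subunits Ppp2r5b and Ppp2r5c. In BAT 3 rose, where 6.82% of all genes did (list median 0.73). In sWAT 4 rose, where 25.1% of all genes did (list median 1.81), and none fell in either depot. Ppargc1a, which encodes PGC-1alpha, rose by 2.43 ± 0.51 in BAT (edgeR adjusted p = 0.0202) and 5.98 ± 0.48 in sWAT (edgeR adjusted p = 1.98e-04). Dio2, which activates thyroid hormone, rose by 1.89 ± 0.42 in BAT (edgeR adjusted p = 0.0241) and 7.79 ± 0.52 in sWAT (edgeR adjusted p = 1.74e-04). In BAT both calls were lost without cold library 2 or thermoneutral library 1 or 2 (edgeR adjusted p 0.0684 to 0.0938 for Ppargc1a and 0.0709 to 0.0991 for Dio2), and Ppargc1a was at 3.03 without thermoneutral library 3. Ucp1 rose by 3.56 ± 0.38 in BAT (edgeR adjusted p = 0.00190) and by 5.72 ± 0.98 in sWAT (edgeR adjusted p = 0.00203), with 7.0 in sWAT without thermoneutral library 1. Ppargc1b, the relative of Ppargc1a, rose by 1.81 ± 0.41 in sWAT (edgeR adjusted p = 0.00712).

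For each member, the 3 genes with the most similar pattern were taken by Pearson correlation of log2 CPM over the 12 libraries, among 8498 genes whose mean log2 CPM reached 3. These correlations are a description without p, and the libraries share their group and their GC trend. Zfp445 (r = 0.988), Impact (0.986) and Zfp317 (0.984) were closest to Clk1, and Nedd4 (0.992), Trip12 (0.988) and Mak16 (0.983) to Srpk2. Closest to Clk4 were Zfp715 (0.979), Stox2 (0.976) and Map4k3 (0.976). The transcripts of these 9 genes have GC contents of 40.1% to 49.2%. Epsti1 (0.987), Sema4d (0.987) and Fam78a (0.980) were closest to Srpk3. Likeness was weaker for the remaining members, with Itm2b (0.939), Dcp1b (0.939) and Sdf4 (0.924) for Clk2, Rexo4 (0.932), Rbmxl1 (0.930) and Cd9 (0.922) for Srpk1, and Itpkb (0.832), Fbxo42 (0.827) and Cyth3 (0.819) for Clk3. Among the members themselves, after subtracting each group's mean, the deviations of Clk4 and Srpk2 correlated at 0.84, those of Clk4 and Srpk1 at 0.76 and those of Clk1 and Srpk2 at 0.71 over the 12 libraries.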

How the data were processed

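RNA of 12 libraries was sequenced from 1000 ng of total RNA as pairs of 100 nt, per the labels. The deposited table holds raw counts per gene symbol, with every sample column mapped. Per the submitters' processing notes STAR, DESeq2 and mm10 were used, with no versions stated. For the counting tool, strand setting and annotation nothing is given in the sources used. Merged, a word no source explains, stands in the names of 2 columns (BAT cold 1, sWAT cold 2).

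Comparisons were made in R 4.3.3 with edgeR 4.0.16 (filterByExpr, TMM, glmQLFit with robust=TRUE, glmQLFTest), fitted on all genes, with Benjamini-Hochberg adjustment over all genes tested and a threshold of 0.05. Cold was compared with thermoneutral within each tissue (6 libraries each time). The difference of responses and the tissue comparisons used all 12 libraries with 4 group means. The standard error (SE) is the log2 fold change divided by the square root of F. CPM use total times TMM factor over 12 libraries. The GC correction enters each library's lowess trend (span 0.3) of log2 CPM on GC content as an offset, with a GC value for 96.0% of genes. Lengths and GC content are of the longest coding transcript in GENCODE M21, and promoters are from RefSeq (GRCm38.p6). Alternatives were scaling by RLE or upper quartile, leaving the 13 mitochondrially encoded genes out of the totals, no filter or one of 1 CPM in at least 3 libraries, robust=FALSE, DESeq2 1.42.0, limma-voom (limma 3.58.1), GC correction, a replicate block, all 12 libraries in the fit and leaving out libraries. The scripts were tested on simulated data.

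Members and lists were chosen with earlier results of these data known. Alternatives for the lists and their genes were added after the data were seen. Named genes are the 7 members, from each pathway list up to 4 called genes with the smallest adjusted p per cold comparison (or 2 where none passed), and 3 genes most similar to each member. Predicted gene models were left out of the last. One gene taken under this rule is not reported here.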

Additional observations from a re-analysis of the deposited data

Results flagged for a closer look

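The response to cold differed between sWAT and BAT for 3 of the 7 kinase genes by the interaction test over all 12 libraries (edgeR's quasi-likelihood test). The log2 difference, sWAT minus BAT, was 4.43 for Clk1, 2.34 for Srpk2 and 2.25 for Clk4. Clk1 had a log2 fold change of 3.22 in sWAT and −1.16 in BAT, of which the BAT value was not called (edgeR adjusted p = 0.0695), and its cold and thermoneutral libraries did not overlap in either tissue. All 3 differences use the sWAT thermoneutral libraries, whose GC slopes of 0.93 to 1.53 per 10 percentage points stand apart, and with the GC correction they were 3.06 for Clk1 and 1.11 for Clk4, which still passed, and 0.82 for Srpk2, which did not (edgeR adjusted p = 0.157).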

How the results depend on the processing

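Of the 7 kinase genes, 0 were called for cold in BAT, and 1 was with DESeq2, the GC correction, the replicate block and the block with GC correction, and 2 without both BAT libraries numbered 3. Leaving out 1 library gave 0 to 1. The main fit in BAT called 12.2% of all genes. DESeq2, the GC correction, both block fits and the fit without the libraries numbered 3 called more genes over the whole table (counts below). In sWAT 4 were called, 2 with the GC correction and with the block and GC correction, and 3 to 6 without 1 library. Of all genes tested in sWAT, 49.2% were called, and 43.5% with the GC correction. The shares of all genes in the sWAT fits without 1 library are not given here. Depth limits Srpk3 most, with 42 to 119 counts in BAT libraries. Of 234 alternative values of called results for these genes, 0 changed sign and 10 no longer passed the threshold. These pool settings of unlike weight. With the GC correction, calls were lost for Clk4 and Srpk3 in sWAT. They were also lost for Srpk2 in the difference of responses and in BAT against sWAT at thermoneutrality.

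The values of these genes that changed sign belong to results that were not called. With the GC correction, alone and with the block, Clk2 was at 0.06 and 0.05 for cold in sWAT, 0.41 and 0.37 for the difference of responses and 0.46 and 0.38 for BAT against sWAT at thermoneutrality. Clk3 was at 0.59 and 0.57, 0.45 and 0.52, and 0.88 and 0.86 in the same comparisons, and Srpk1 at −0.26 and −0.30 for the difference. With the block and GC correction, cold in BAT gave −0.05 for Clk3 and 0.03 for Srpk2. Upper quartile scaling gave −0.12 for Clk3 in BAT, and −5.1e-04 for Clk2 and −0.05 for Clk4 in BAT against sWAT in the cold. Clk3 in BAT was at −0.0033 with the filter of 1 CPM and −0.01 with all 12 libraries. The difference of Srpk1 was −0.10 with RLE, −0.08 without mitochondrially encoded genes, −0.10 with DESeq2 and −0.03 with limma-voom. Without both BAT libraries numbered 3, values were 0.34 for Clk2 and −0.02 for Clk3 in BAT, −0.12 for the difference of Srpk1, 0.05 for Clk3 at thermoneutrality and −0.27 for Clk4 in the cold. Without 1 library, ranges were −0.41 to 0.20 (Clk2), −0.02 to 0.13 (Clk3) and −0.42 to 0.24 (Srpk2) in BAT, −0.44 to 0.14 for the difference of Srpk1, and −0.13 to 0.05 for Clk3 at thermoneutrality. For BAT against sWAT in the cold they were −0.69 to 0.11 (Clk1), −0.04 to 0.35 (Clk2), −0.13 to 0.41 (Clk4), −0.44 to 0.12 (Srpk1) and −0.50 to 0.28 (Srpk2). The called genes Prpf4b and Rps6kb1 in sWAT changed sign with the GC correction (−0.13 and −0.14) and with the block and GC correction (−0.08 and −0.11). The causes were not tested.

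The replicate block rests on the experiment numbers, whose meaning the labels do not give, and the deviations of same-numbered libraries did not all correlate above 0.1. Cold and thermoneutral correlated at 0.31, 0.07 and 0.29 in BAT and −0.23, 0.19 and −0.31 in sWAT, and BAT and sWAT at −0.47, 0.53 and −0.30 in cold and 0.02, 0.22 and 0.07 in thermoneutral libraries. Each BAT cold library correlated best with the BAT thermoneutral library of its own number, but for cold library 2 this was 0.07 against 0.06 with thermoneutral library 1. These values therefore do not show that the numbers are pairs. With the block Clk4 passed in BAT (−0.78, edgeR adjusted p = 0.0476), and Clk4 was at −0.02 in BAT against sWAT in the cold.

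Counts over all genes for cold in BAT were 1777, and 2806 with DESeq2, 3382 with the GC correction, 2799 with the block, 3763 with both, 6509 without both libraries numbered 3 and 451 to 2483 without 1 library. The difference of responses gave 4108, and 2419 to 5498 without 1 library, and BAT against sWAT in the cold 2015, and 1100 to 2033. For cold in BAT 996 genes were higher and 781 lower, against 774 and 1089 with upper quartile scaling, which moved the median of all genes to −0.20 from −0.04. For the difference they were 2824 and 1284, against 2423 and 1727 with RLE (median −0.03, against 0.12). Relative to those medians the calls of Clk1, Clk4 and Srpk2 kept their direction. In the list of SR proteins, 4 were called in sWAT and 10 with the GC correction.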
